A study of Mus musculus with 6 samples.

Results

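Immediate early genes are transcribed within minutes of a stimulus by transcription factors that are already present in the cell, and 10 of them were followed here in mouse sensory ganglia. They were taken by symbol from the 48401 gene symbols of the deposited tables and are Fos, Fosb, Junb, Egr1, Egr3, Arc, Npas4, Nr4a1, Dusp1 and Btg2. All 10 were found. Libraries were made from total RNA of the L4/5 dorsal root ganglia (DRG), which hold the cell bodies of the sensory neurons that serve the hindlimb, taken from male C57BL/6J mice at 8 weeks of age. All animals had received small interfering RNA into the fluid around the spinal cord. In 3 libraries it was siNC, taken here as the control, and in 3 it was siCLAP, directed at the long noncoding RNA CLAP, which the series title links to itch. The labels give no dose, no interval between injection and dissection, and no statement on whether a library is 1 mouse or a pool, and p-values therefore reflect library-to-library spread, which may be technical. No gene row carries the name CLAP, so the knockdown itself was not analysed here.

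In neurons, calcium entry and growth factor signals reach these genes through kinases that act on CREB, bound at the cAMP response element (CRE), and on serum response factor, bound at the CArG box. The products fall into several roles. Fos, Fosb and Junb encode subunits of the AP-1 transcription factor, Egr1 and Egr3 encode zinc-finger factors, Nr4a1 an orphan nuclear receptor, and Npas4 a neuronal factor that answers calcium entry. Arc encodes a synaptic protein, Dusp1 a phosphatase that switches off MAP kinases, and Btg2 an antiproliferative protein that recruits the mRNA deadenylation complex. In the DRG such genes are expressed by neurons and by glial, vascular and immune cells.

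Promoter sequences of 7 of the 10 genes were matched by symbol in the RefSeq table for GRCm38.p6, each a window of 300 bases from 250 before to 50 after an annotated start. The genes without an entry were Egr1, Egr3 and Arc. The sequences of Dusp1 and Btg2 are shown because they hold the complete CRE. Those of Fos and Nr4a1 are shown because, among the tested members, Fos varied most between libraries and Nr4a1 least. Capitals mark matches to TGACGTCA (the CRE), its core TGACG read on either strand (CGTCA on the other), and the TATA box TATAAA. Dusp1 lies at chr17:26508423-26508722 and Btg2 at chr1:134079106-134079405, both on the minus strand, and Fos lies at chr12:85473640-85473939 and Nr4a1 at chr15:101266596-101266895, both on the plus strand. The windows of Dusp1 and Nr4a1 lie inside the spans of these genes in GENCODE M21, downstream of their outermost annotated start. All sequences are written 5′ to 3′ on the gene's strand.
Dusp1: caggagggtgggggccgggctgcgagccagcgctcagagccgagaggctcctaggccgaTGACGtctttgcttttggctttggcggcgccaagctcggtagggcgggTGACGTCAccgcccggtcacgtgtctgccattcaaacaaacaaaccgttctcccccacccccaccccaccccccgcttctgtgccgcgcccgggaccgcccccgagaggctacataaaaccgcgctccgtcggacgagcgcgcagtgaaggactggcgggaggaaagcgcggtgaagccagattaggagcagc
Btg2: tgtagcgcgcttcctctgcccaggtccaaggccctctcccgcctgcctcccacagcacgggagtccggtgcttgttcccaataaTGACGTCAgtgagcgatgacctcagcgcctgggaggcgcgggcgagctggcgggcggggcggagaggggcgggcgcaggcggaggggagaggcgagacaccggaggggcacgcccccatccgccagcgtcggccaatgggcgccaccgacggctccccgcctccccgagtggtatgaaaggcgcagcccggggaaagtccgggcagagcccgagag
Fos: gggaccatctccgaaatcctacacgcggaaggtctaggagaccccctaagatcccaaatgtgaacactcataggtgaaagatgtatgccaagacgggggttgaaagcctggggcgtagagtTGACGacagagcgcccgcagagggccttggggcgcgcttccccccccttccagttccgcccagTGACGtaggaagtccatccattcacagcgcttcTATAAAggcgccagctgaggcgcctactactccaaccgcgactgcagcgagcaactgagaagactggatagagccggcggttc
Nr4a1: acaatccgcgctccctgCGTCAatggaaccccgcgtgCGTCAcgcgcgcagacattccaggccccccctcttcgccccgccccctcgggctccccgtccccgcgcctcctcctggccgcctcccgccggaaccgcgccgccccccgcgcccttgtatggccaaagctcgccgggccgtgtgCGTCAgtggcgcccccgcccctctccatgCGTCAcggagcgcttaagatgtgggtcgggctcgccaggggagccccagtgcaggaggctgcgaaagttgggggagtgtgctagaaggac

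The core TGACG was found in 7 of the 7 windows, against 20.8% of all 32851 windows of the same length in the table. Matches to the complete CRE contain the core and were counted under both. Nr4a1 held 4 cores, Dusp1 3 and Fos 2, where the 2 strands of the complete CRE count separately. The complete CRE was found in Dusp1, where it begins 143 bases before the start, and in Btg2, where it begins 166 bases before the start, which is 2 of 7 windows against 1.79% of all windows. The letters of the TATA box, TATAAA, were found in Fos and Junb, 2 of 7 windows against 13.6%. They begin 33 bases before the start in Fos but at the annotated start itself in Junb. The CArG box (1.63% of all windows), the AP-1 site TGANTCA (7.81%) and the EGR site GCGTGGGCG (0.612%), all read on both strands, had 0 matches in the 7 windows. A match describes letters and shows no binding, and the windows may leave out more distant elements.

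The libraries held between 21386768 and 46317735 expected counts, with siNC-3 the shallowest and siNC-2 the deepest. As a check of the tissue, 12 sensory neuron markers summed to 19461 to 20265 TPM (transcript abundance corrected for gene length and depth) in siNC and 20354 to 21005 TPM in siCLAP, while 7 markers of central glia summed to at most 10.4 TPM. Of 14 marker lists, 3 had summed levels that did not overlap between groups. These were the sensory neuron list, the nerve injury list (503 to 539 TPM in siNC, 572 to 591 TPM in siCLAP) and the leptomeningeal list, from the membranes around cord and roots (28.5 to 122 TPM in siNC, 11.5 to 23.9 TPM in siCLAP). Most of the sensory neuron sum is Uchl1, Tubb3, Nefl, Prph and Nefm. Most of the nerve injury sum is Gap43 (393 to 411 TPM in siNC, 412 to 428 TPM in siCLAP), and this list includes Atf3. Most of the leptomeningeal sum in siNC is Ptgds. Of the 9 leptomeningeal genes, 5 were lower in every siCLAP library and 4 overlapped. For single genes, groups did not overlap in 21.5% of all tested genes by depth-scaled counts. The satellite glia list, most of whose sum is Apoe, stood at 4069 to 4448 against 4392 to 4848 TPM. Of its 8 genes, Ednrb (57.1 to 59.5 against 69.3 to 84.5 TPM) and Fabp7 (180 to 191 against 218 to 268 TPM) were higher in every siCLAP library, Cdh19 (65.3 to 72.4 against 55.3 to 63.5 TPM) was lower, 5 overlapped, and Ednrb alone passed edgeR's test. Summed levels also overlapped for the myelinating Schwann cell list, at 3489 to 4603 against 3468 to 3792 TPM, and the macrophage list, at 44.7 to 78.0 against 46.6 to 95.9 TPM. The endothelial list (118 to 133 against 120 to 123 TPM) and the mural cell list (155 to 167 against 136 to 162 TPM) also overlapped. So did the fibroblast (346 to 528 against 374 to 603 TPM), neutrophil (4.20 to 12.8 against 1.29 to 4.67 TPM) and erythroid lists (10.1 to 57.3 against 9.11 to 25.8 TPM), and the lymphocyte and skeletal muscle lists, which stayed at or under 5.90 TPM. Bulk RNA cannot separate fewer cells of a type from less RNA per cell.

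By TPM, which corrects for gene length, the 10 genes fell into 3 tiers. Nr4a1, Junb and Dusp1 formed the upper tier, with means over the 6 libraries of 31.5, 30.3 and 28.8 TPM, above 69.6%, 68.7% and 67.5% of the 19141 genes with a mean of at least 1 TPM. Egr3, Egr1, Arc, Fos and Btg2 formed the middle tier, at 5.55, 4.77, 4.42, 4.20 and 3.99 TPM. Fosb and Npas4 stood lowest, at 0.539 and 0.398 TPM. Neighbours within a tier had overlapping ranges, so their order is not resolved. The lowest Dusp1 value (24.4 TPM) lay above the highest Egr3 value (6.74 TPM), and the lowest Btg2 value (3.68 TPM) lay above the highest Fosb value (0.729 TPM).

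**Figure D1:**
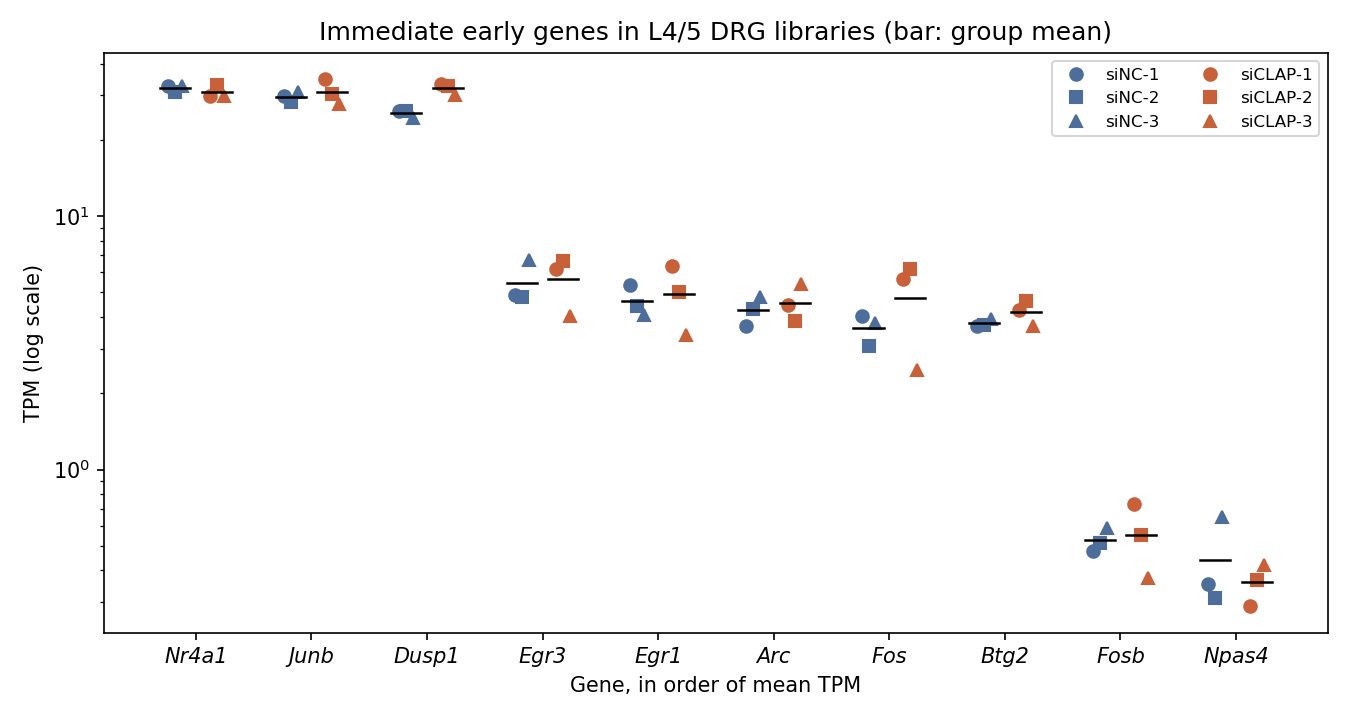
TPM (log axis) of the 10 immediate early genes in each library, ordered by mean, with siNC libraries in blue, siCLAP libraries in orange, symbols for replicate numbers and black bars for group means of 3. The 3 siCLAP points of Dusp1 (30.2 to 33.3 TPM) lie above its 3 siNC points (24.4 to 26.0 TPM), while the groups overlap for the other genes.

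Comparison of siCLAP with siNC asked whether the immediate early programme of the ganglion differed after the knockdown. In edgeR's quasi-likelihood test, fitted on 19141 genes with p-values adjusted over all of them by the Benjamini-Hochberg method, 0 of the 8 genes with a mean of at least 1 TPM passed at an adjusted p under 0.05, against 0.293% of all tested genes. At an unadjusted p under 0.05 the number was 1, Dusp1, which was higher in siCLAP, against 17.0% of all tested genes in either direction and 8.22% higher. DESeq2 called 1 of the 8, again Dusp1, against 3.19% of all tested genes. Its own filter left Fos without an adjusted p (DESeq2 unadjusted p = 0.127). Genes left without an adjusted p count as not called in these numbers. Of the 8 estimates 7 were above 0, with a median log2 fold change of 0.12, against a median of -0.00178 over all tested genes, of which 49.5% were above 0. Fosb and Npas4 were below the filter. Only Dusp1 had groups that did not overlap, 1 of 8 tested genes against 21.5% of all tested genes (10.9% with siCLAP higher and 10.7% with siCLAP lower).

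Dusp1, the MAP kinase phosphatase, had the clearest separation of the 10. Its level was 26.0, 26.0 and 24.4 TPM in siNC libraries 1 to 3 and 33.3, 32.6 and 30.2 TPM in siCLAP libraries 1 to 3, an order of replicates kept for all genes. Each siCLAP library was above each siNC library. In counts scaled to the TMM-adjusted library size (CPM), the means were 19.3 ± 0.830 in siNC and 24.5 ± 1.27 in siCLAP (SD, n = 3 libraries each). The log2 fold change was 0.34 ± 0.07 (SE), a ratio of 1.27, with a 95% interval from 0.20 to 0.49 and an edgeR adjusted p of 0.0584, just outside the threshold. The estimate lay between 0.31 and 0.39 in all 18 alternative analyses, while its adjusted p ran from 0.00676 to 0.315. It was past the threshold in 7 of them, among them DESeq2 (adjusted p = 0.00896) and the fit without siCLAP-3 (adjusted p = 0.0333), and it was 0.315 without siCLAP-1.

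In GENCODE M21 the Dusp1 annotation spans 26505590 to 26562128 on the minus strand of chromosome 17 (mm10). The promoter window shown, 26508423 to 26508722, lies inside this span, so an annotated transcript starts further upstream. Annotated exons of Dusp1 overlap exons of Ergic1 on the opposite strand. Which Dusp1 transcript holds the overlap was not examined. The library kit does not mark strand, so reads in the overlap cannot be assigned. Ergic1, a cargo receptor of the early secretory pathway, was at 38.1 ± 3.21 CPM in siNC and 34.7 ± 2.18 CPM in siCLAP, with a log2 fold change of -0.14 ± 0.07 and an edgeR adjusted p of 0.363, opposite in sign to Dusp1. The summed sensory neuron and nerve injury markers were also higher in each siCLAP library than in each siNC library. Of the 12 sensory neuron genes, 5 were higher in every siCLAP library, 6 overlapped and 1 was lower. The lower gene was Avil, at 891 to 908 TPM in siNC and 779 to 858 TPM in siCLAP. Of the 10 nerve injury genes, 7 were higher and 3 overlapped. Over all tested genes, 10.9% were higher and 10.7% lower without overlap in CPM. The part of either list in the Dusp1 difference was not tested.

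Fos, the prototype of the class, had the largest estimate and the widest spread among the tested members. It stood at 4.03, 3.08 and 3.79 TPM in the siNC libraries and at 5.64, 6.20 and 2.47 TPM in the siCLAP libraries. The siCLAP group thus held both the 2 highest values and the lowest value of the 6. Means were 2.91 ± 0.370 CPM in siNC and 3.87 ± 1.63 CPM in siCLAP (SD, n = 3 each), with a log2 fold change of 0.42 ± 0.27, a 95% interval from -0.17 to 1.02 and an edgeR adjusted p of 0.452. Without siCLAP-3 the log2 fold change was 0.73 and the edgeR adjusted p 0.0470. The log2 fold change was 0.27 without siCLAP-1 and 0.22 without siCLAP-2. A call for Fos therefore rests on whether siCLAP-3 is included. Its expected counts were 59 to 179 per library.

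Fosb, a paralog of Fos, was also lowest in siCLAP-3, but on 16 expected counts there, and the part of counting noise in that rank was not tested. It was at 0.475, 0.514 and 0.587 TPM in siNC and at 0.729, 0.552 and 0.375 TPM in siCLAP, on 16 to 41.5 expected counts. The highest value was in siCLAP-1 and the lowest in siCLAP-3, and the groups overlapped. In the fit with no TPM filter, which took in 30347 genes, its log2 fold change was 0.14 ± 0.28 (edgeR adjusted p = 0.868).

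Junb, the AP-1 partner of both, was more abundant and steadier. It stood at 29.9, 28.3 and 30.8 TPM in siNC and 34.7, 30.3 and 27.7 TPM in siCLAP. Again siCLAP-1 was highest and siCLAP-3 lowest. The log2 fold change was 0.08 ± 0.08 (95% interval -0.10 to 0.27, edgeR adjusted p = 0.653), and it was -0.02 without siCLAP-1. Exons of Junb overlap those of Prdx2, a peroxiredoxin gene on the opposite strand, which was at 165 ± 4.07 CPM in siNC and 191 ± 7.57 CPM in siCLAP (log2 fold change 0.21 ± 0.05, edgeR adjusted p = 0.0756).

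Egr1 and Egr3 shared the low value of siCLAP-3. Egr1 stood at 5.35, 4.41 and 4.08 TPM in siNC and at 6.38, 5.01 and 3.40 TPM in siCLAP. Egr3 stood at 4.87, 4.79 and 6.74 TPM in siNC and at 6.22, 6.64 and 4.03 TPM in siCLAP. For both genes the siCLAP values reached from the lowest of the 6 up to, or near, the highest. Log2 fold changes were 0.12 ± 0.19 for Egr1 (95% interval -0.31 to 0.54) and 0.08 ± 0.18 for Egr3 (95% interval -0.32 to 0.48), with edgeR adjusted p of 0.797 and 0.857. The sign turned without siCLAP-1 for Egr1 (-0.14), and without siCLAP-1 or siCLAP-2 for Egr3 (-0.01 and -0.04).

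Nr4a1, the orphan receptor also known as Nur77, had the highest mean TPM of the 10, not resolved from Junb and Dusp1, and was the most even. It stood at 32.6, 30.8 and 32.7 TPM in siNC and 29.8, 33.0 and 29.7 TPM in siCLAP, and the highest CPM was 1.10 times the lowest. The groups overlapped and the log2 fold change was -0.04 ± 0.06. Its 95% interval, from -0.17 to 0.09, was the narrowest among the members.

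Arc and Npas4, whose induction is best known from neurons, had another order of libraries than Fos, which for Npas4 rests on few counts. Arc stood at 3.69, 4.31 and 4.81 TPM in siNC and 4.44, 3.85 and 5.40 TPM in siCLAP, so siCLAP-3, lowest for Fos, was highest for Arc. Its log2 fold change was 0.12 ± 0.15 (95% interval -0.21 to 0.45, edgeR adjusted p = 0.716), and -0.01 without siCLAP-3. Npas4 stood at 0.355, 0.312 and 0.649 TPM in siNC and 0.289, 0.367 and 0.420 TPM in siCLAP, with siNC-3 highest. It rested on 14 to 21 expected counts, and its log2 fold change in the fit with no TPM filter was -0.22 ± 0.34 (95% interval -0.90 to 0.46, edgeR adjusted p = 0.814). A change of the size estimated for Fos would lie within that interval.

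Btg2 stood at 3.69, 3.72 and 3.93 TPM in siNC and 4.27, 4.62 and 3.68 TPM in siCLAP. In CPM siCLAP-1 and siCLAP-2 were above all siNC libraries while siCLAP-3, at 4.35 CPM, lay between siNC-1 (4.28 CPM) and siNC-2 (4.43 CPM). The log2 fold change was 0.17 ± 0.12 (95% interval -0.10 to 0.43, edgeR adjusted p = 0.507).

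**Figure D2:**
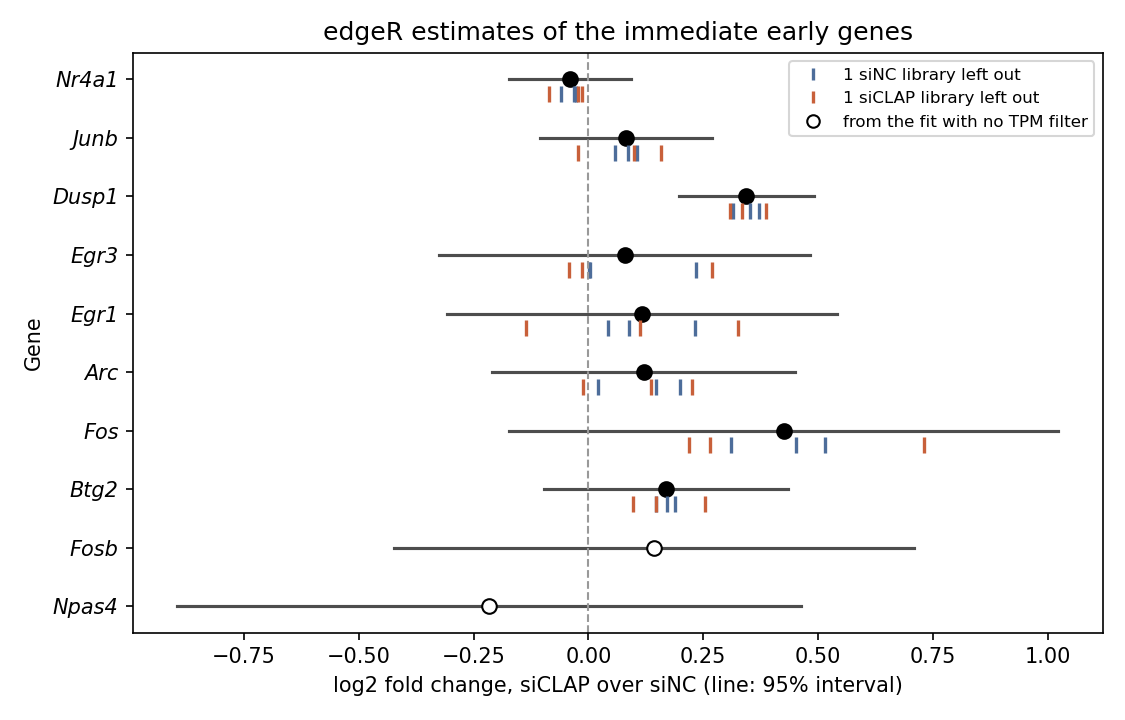
Log2 fold change of siCLAP over siNC for each gene from edgeR (circles, with 95% intervals as lines) and the estimates with 1 library left out (ticks, blue for a siNC and orange for a siCLAP library). Dusp1 at 0.34 has the one interval that lies wholly above 0, and the tick of Fos at 0.73 is the estimate without siCLAP-3; open circles for Fosb and Npas4 come from the fit with no TPM filter.

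For most of these genes the order of the libraries did not follow the groups. Of the 10, siCLAP-3 had the lowest CPM in 6 (Fos, Fosb, Junb, Egr1, Egr3 and Nr4a1) and the highest in 1 (Arc). For Nr4a1 it lay close to siCLAP-1 (28.3 and 28.6 CPM), and for Fosb it rested on 16 expected counts. By contrast siCLAP-1 was highest in 4 (Fosb, Junb, Egr1 and Dusp1) and siCLAP-2 in 3 (Fos, Nr4a1 and Btg2). All 10 were below their own mean log2 CPM in siNC-2, and 8 of 10 were above it in siCLAP-1 and in siCLAP-2. Median deviations from that mean were 0.21 in siCLAP-1, 0.09 in siCLAP-2 and -0.11 in siCLAP-3. The libraries held 39239131, 25982046 and 29583942 expected counts in the same order, and the part of depth in this pattern was not tested.

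The spread within groups separated the genes as well. The pooled SD of log2 CPM was 0.53 for Fos, 0.35 for Egr1, 0.34 for Egr3 and 0.23 for Arc. It was 0.12 for Junb and for Btg2, 0.07 for Dusp1 and 0.06 for Nr4a1, against a median of 0.11 over all tested genes. Expected counts per library were 659 to 1356 for Nr4a1, 98.5 to 204 for Btg2 and 59 to 179 for Fos, and the part of counting noise in these spreads was not tested.

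**Figure D3:**
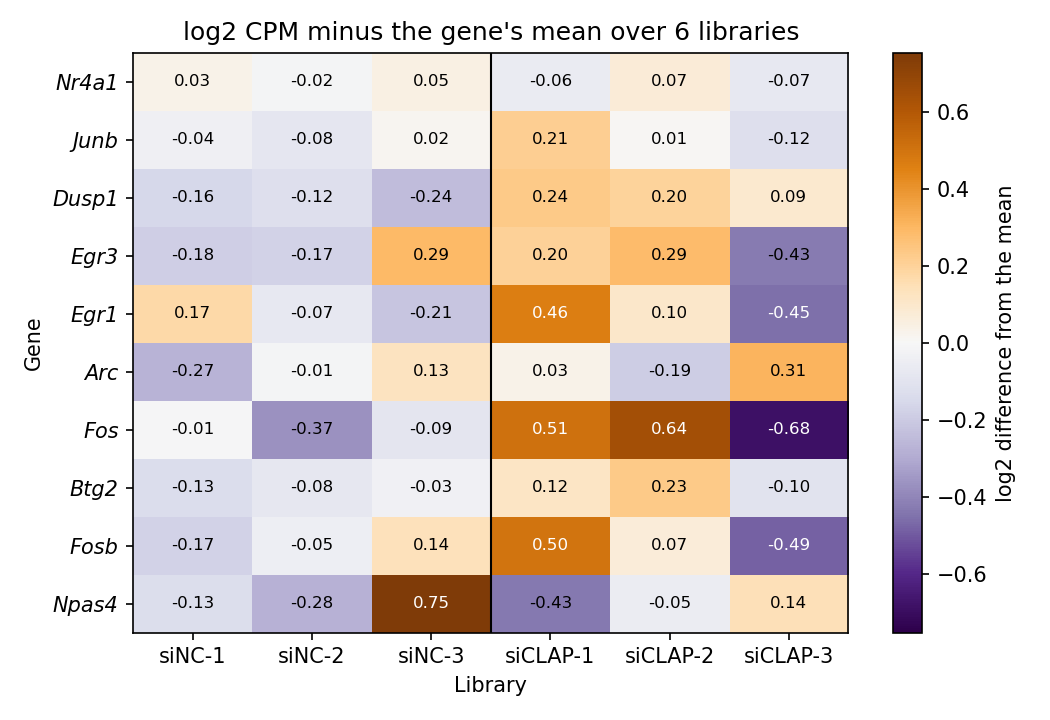
Log2 CPM of each gene (rows, by mean TPM) in each library (columns, siNC left of the line, siCLAP right), minus the gene's mean over the 6 libraries; orange is above and purple below the mean. The column of siCLAP-3 is purple for 7 of 10 genes, with Fos at -0.68, and the column of siNC-2 is below 0 for all 10.

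Genes with an order of libraries most similar to that of the members were sought over all 19133 tested genes other than the members. The reference profile was the mean standardised log2 CPM of the 8 tested members, which was highest in siCLAP-1 (0.76) and siCLAP-2 (0.69) and lowest in siCLAP-3 (-0.65). The 8 most alike were Pcdhb7, Gm26712, Uqcr11, Srpx, Mrpl14, Slc38a11, Rhoc and Gdpd1, with Pearson r from 0.995 to 0.984 over 6 libraries, and 49 genes had r of at least 0.95. For Fos alone the search took in the 19140 other tested genes, the other tested members included. The most alike were Ndufa7, Tma7-ps and Rbm6 (r from 0.977 to 0.975). The member most alike to Fos was Btg2 (r = 0.863). None of these 11 is an immediate early gene in the lists used here. They range from a protocadherin (Pcdhb7) to a small subunit of respiratory complex III (Uqcr11) and one of complex I (Ndufa7). With 6 points such values describe shared library order only.

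Other genes of the same response were taken from 5 lists with 91 entries, of which 83 were tested. Of the 83, 1 was higher and 4 were lower in siCLAP at an edgeR adjusted p under 0.05, and 78 did not pass. Background shares were 0.0731% of all tested genes higher and 0.219% lower. Estimates were split, with 43 above and 40 below 0. With limma on log2(TPM + 0.5), 0 of the 83 passed and 22 had an unadjusted p under 0.05, against 0% and 15.8% of all tested genes.

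Among 7 tested AP-1 relatives, 1 rose and 6 did not pass (median log2 fold change -0.03). The riser was Atf3, an AP-1 type factor induced in stressed and axotomised sensory neurons. It stood at 13.7, 9.16 and 12.7 TPM in siNC and at 26.8, 22.6 and 18.1 TPM in siCLAP, without overlap (log2 fold change 0.97 ± 0.16, edgeR adjusted p = 0.0409). The adjusted p was over 0.05 in 8 of the 18 alternatives, among them without siNC-1, siNC-3, siCLAP-1 or siCLAP-2 (0.0544, 0.133, 0.222 and 0.0693) and with edgeR's robust settings (0.0623). Jun, the usual partner of Fos, was at 131 ± 14.7 against 137 ± 18.3 CPM, and Maff, a small Maf factor, stood at -0.34 ± 0.16 (edgeR adjusted p = 0.311).

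Of 14 other immediate early transcription factors tested, 2 fell, 0 rose and 12 did not pass (median log2 fold change 0.05). Egr2, a paralog of Egr1 and Egr3 that drives myelination in Schwann cells, was at 19.8, 16.2 and 14.1 TPM in siNC and 9.03, 9.05 and 11.3 TPM in siCLAP. All siCLAP values were below all siNC values (log2 fold change -0.76 ± 0.13, edgeR adjusted p = 0.0389), on the other side of 0 from the estimates of Egr1 and Egr3. Per1, a clock gene induced by CREB and by glucocorticoids, was at 26.1, 26.1 and 27.3 TPM in siNC and 16.5, 20.2 and 17.6 TPM in siCLAP (log2 fold change -0.54 ± 0.07, edgeR adjusted p = 0.0219). Adjusted p was over 0.05 for Egr2 without siNC-1, siNC-3, siCLAP-1 or siCLAP-2 (0.0863, 0.104, 0.225 and 0.0805), and for Per1 without siNC-3 or siCLAP-1 (0.109 and 0.126). Of 9 myelinating Schwann cell markers, Mal was lower in every siCLAP library (76.9 to 85.1 against 91.8 to 101 TPM) and 8 overlapped, and their part in the fall of Egr2 was not tested.

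Of 21 immediate early effectors tested, 1 fell, 0 rose and 20 did not pass (median log2 fold change 0.05). Sgk1, a kinase gene that answers serum and glucocorticoids, was at 32.6, 31.1 and 26.5 TPM in siNC and 19.1, 20.4 and 20.8 TPM in siCLAP (log2 fold change -0.58 ± 0.08, edgeR adjusted p = 0.0245). It was over the threshold without siNC-1 or siCLAP-1 (edgeR adjusted p = 0.0507 and 0.167). Ctgf, a matricellular protein gene, was at 6.93, 6.56 and 18.4 TPM in siNC and 3.99, 3.67 and 3.51 TPM in siCLAP, with siNC-3 far above the rest. Its log2 fold change was -1.44 ± 0.34 (edgeR adjusted p = 0.0885), and -0.84 without siNC-3. The leptomeningeal list was also lower in siCLAP, at 112, 28.5 and 122 TPM in siNC and 23.9, 17.1 and 11.5 TPM in siCLAP. It was thus nearly as high in siNC-1 as in siNC-3, while Ctgf was not. Its member Aldh1a2 stood at 2.34, 0.323 and 7.75 TPM in siNC, and Ptgds at 90.3, 19.3 and 91.7 TPM. The part of this list in the Ctgf value was not tested.

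Of 13 feedback regulators tested, 0 passed (median log2 fold change -0.05), and 3 had an unadjusted p under 0.05, against 17.0% of all tested genes (8.22% higher and 8.75% lower). Btg1, the paralog of Btg2, was at 13.1, 12.6 and 12.7 TPM in siNC and 14.9, 17.0 and 15.6 TPM in siCLAP, without overlap (log2 fold change 0.32 ± 0.06, edgeR adjusted p = 0.0584). Dusp6, another phosphatase of the same family, lay on the other side of 0 from Dusp1, at 17.7, 21.1 and 23.2 TPM in siNC and 14.6, 16.8 and 15.3 TPM in siCLAP. Its groups did not overlap (log2 fold change -0.39 ± 0.10, edgeR adjusted p = 0.0984).

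Of 28 upstream activators, all tested, 1 fell, 0 rose and 27 did not pass (median log2 fold change -0.01). Camk2a, the alpha subunit of the calcium and calmodulin dependent kinase II, was at 154, 163 and 152 TPM in siNC and 122, 126 and 127 TPM in siCLAP, so that each siCLAP library lay below each siNC library. The log2 fold change was -0.31 ± 0.05 with an edgeR adjusted p of 0.0282, and the adjusted p was 0.0501, 0.109, 0.192 and 0.0505 without siNC-1, siNC-3, siCLAP-1 and siCLAP-2. Mef2d, a calcium-responsive transcription factor, stood at -0.15 ± 0.04 (edgeR adjusted p = 0.117). Srf and Creb1, which encode the factors that bind the CArG box and the CRE, stood at 0.01 ± 0.06 and -0.08 ± 0.07, and their 95% intervals ran from -0.11 to 0.14 and from -0.25 to 0.08.

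**Figure D4:**
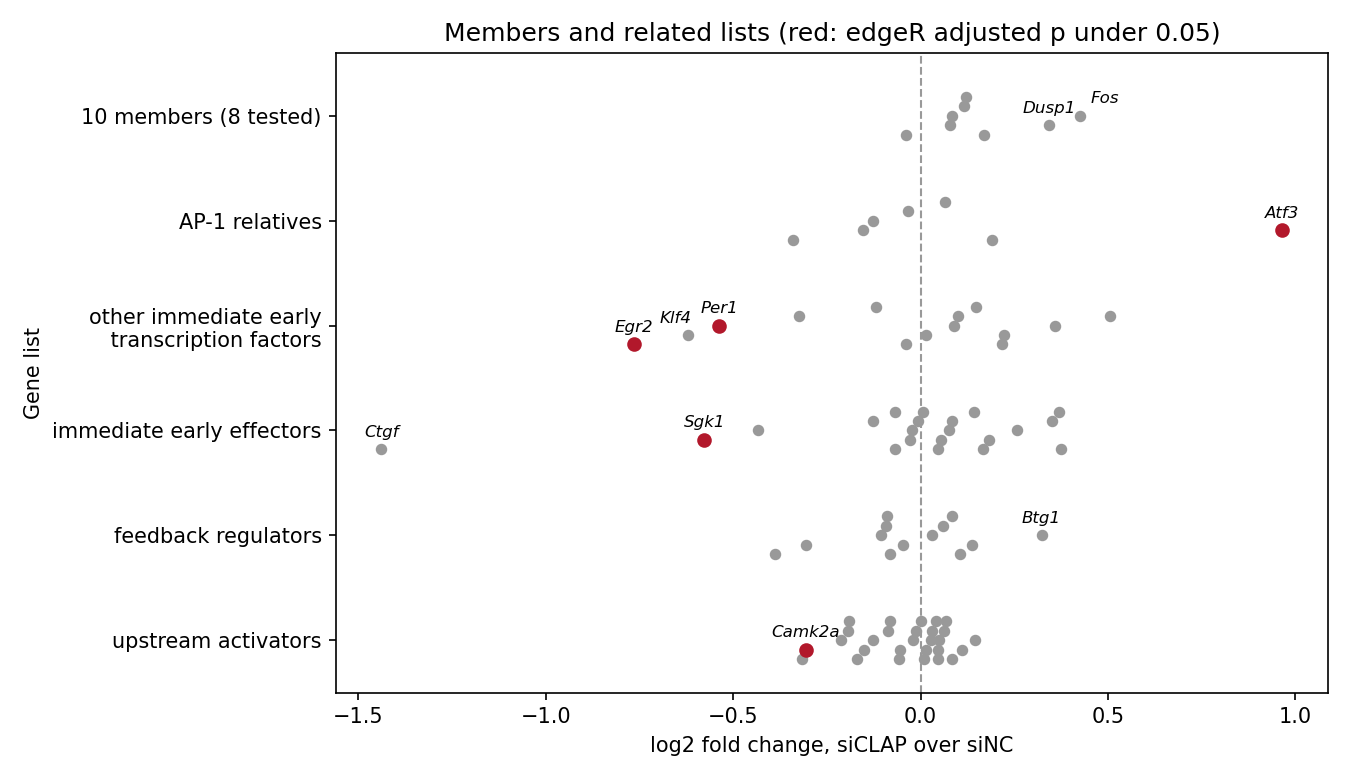
Log2 fold change of siCLAP over siNC for the 8 tested members and the tested genes of 5 related lists, one point per gene, with vertical scatter only to separate points; red marks an edgeR adjusted p under 0.05. The red points are Atf3 above 0 and Egr2, Per1, Sgk1 and Camk2a below 0, and none of the members is red.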

How the data were processed

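The submitters' processing notes name FastQC 0.11.8, HISAT2 2.1.0, featureCounts 1.6.2 and mm10. The annotation, strand setting and handling of multiply assigned reads were not given in the sources used here. Per the labels' protocols, the kit was NEBNext Ultra, which does not mark strand. Each deposited file lists TPM and expected counts for 48401 symbols. The deposited expected counts are in part not whole (66.5% were whole within 1e-06).

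Expected counts were rounded and tested with edgeR 4.0.16 (R 4.3.3), with TMM normalization (factors 0.995 to 1.011), no covariate, and genes with a mean of at least 1 TPM (19141). Standard errors were derived from the log2 fold change and its F statistic. The 95% intervals use the test's degrees of freedom. With 3 libraries against 3, an exact permutation test cannot give a p below 0.1. Libraries of 1 group differed by more than counting noise (mean chi-square per gene 4.27 to 9.85). The script was tested on simulated counts.

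The members, gene lists and tests were chosen with earlier results of these data known. Named genes were the 10 members, the passing genes and otherwise the 2 of smallest p in each related list, and the genes with the most similar profiles. Jun, Srf, Creb1, Ergic1 and Prdx2 were added with their values in view. The 18 alternatives, fixed together with the tests, used DESeq2 1.42.0, limma 3.58.1 on log2(TPM + 0.5) and other pseudocounts, voom, other scaling and filters, a replicate block, and each library left out.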

Additional observations from a re-analysis of the deposited data

How the results depend on the processing

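Genes that changed over the whole table numbered 56, and 835 with no TPM filter, 118 at a mean of at least 5 TPM, 611 with DESeq2, 133 with robust settings, 861 with voom and sample weights, and 0 with limma on log2(TPM + 0.5), log2(TPM + 0.1) or log2(TPM + 1). Leaving out 1 library gave 0 (without siCLAP-1) to 340 (without siCLAP-3). Of the immediate early genes 0 passed, against 1 (Dusp1 each time) with no TPM filter, at 5 TPM, with DESeq2, robust settings and sample weights, and 0 to 2 with 1 library left out, the 2 being Fos and Dusp1 without siCLAP-3. Dusp1 then stood at 0.34 with no TPM filter, at 5 TPM, with DESeq2 and with robust settings, at 0.38 with sample weights, and between 0.31 and 0.39 with 1 library left out. Ranges with 1 library left out were 0.22 to 0.73 for Fos, -0.0222 to 0.158 for Junb, -0.136 to 0.325 for Egr1, -0.0417 to 0.269 for Egr3 and -0.0114 to 0.226 for Arc. No other alternative turned the sign of a tested member. Related genes that changed numbered 5, and 12 with no TPM filter, 11 with sample weights, 0 under each limma fit on TPM, and 0 to 6 with 1 library left out. The cause of these shifts was not tested.

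Same-numbered libraries did not deviate together (correlations 0.04, 0.000715 and -0.03 across genes), so the numbers are treated as names. With the replicate number as a block, 203 genes changed, and 1 member, Dusp1, passed at 0.35 (edgeR adjusted p = 0.0400). Fosb and Npas4, with at most 41.5 expected counts, are limited by depth.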

Other observations

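Beyond the genes named above, the related lists held others at an unadjusted p under 0.05 that did not pass edgeR's adjusted threshold, chosen here after their values were seen. Klf4 and Klf2, Kruppel-like factors that respond to flow in endothelium, stood at -0.62 ± 0.16 and -0.32 ± 0.14 (edgeR adjusted p = 0.0984 and 0.267), and of 10 endothelial markers 2 were lower in every siCLAP library than in every siNC library (Tie1 at -0.32 ± 0.09 and Cdh5 at -0.40 ± 0.12), 1 was higher (Cldn5 at 0.29 ± 0.09) and 7 overlapped. Their part in the Klf4 and Klf2 values was not tested. Cyr61, which like Ctgf encodes a matricellular protein, stood at -0.43 ± 0.16, and Nfkbia, an inhibitor of NF-kappaB, at -0.31 ± 0.09. Above 0 were Ier5 at 0.50 ± 0.18, Gadd45b, a stress-induced gene, at 0.37 ± 0.11, Rgs2, a regulator of G protein signalling, at 0.35 ± 0.09, and Bdnf, a neurotrophin gene, at 0.18 ± 0.08. Over the 83 tested related genes 10 were higher and 17 lower at an unadjusted p under 0.05, against 8.22% and 8.75% of all tested genes. The coactivator genes Ep300 and Crebbp stood at -0.21 ± 0.06 and -0.19 ± 0.07.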
